A study of Homo sapiens with 6 samples.

Results

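RNA polymerases I, II and III and the factors that place polymerases I and III on their genes were followed in Y79 cells with and without a hairpin against MYCN. The members were taken by symbol from the gene table: every row named POLR1, POLR2 or POLR3 followed by a letter, together with RRN3, TAF1A to TAF1D, BRF1, BRF2, BDP1, GTF3A and GTF3C1 to GTF3C6. This gave 48 of 17013 genes, 33 of them subunits or subunit-related genes and 15 initiation factors. Y79 is an established human retinoblastoma line that carries an amplified MYCN gene. One group carried a control shRNA and is labelled MYCN wild-type, the other carried a shRNA against MYCN and is labelled MYCN knockdown. Each group had 3 libraries of poly(A)-selected RNA, which the series text calls independent biological replicates, all placed in 1 batch by the labels. Neither the number of hairpins nor the time of harvest is given in the sources used here, so hairpins cannot be compared, and the p-values measure spread between these libraries.

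RNA polymerase I makes the long ribosomal RNA precursor in the nucleolus, RNA polymerase II makes messenger RNA, and RNA polymerase III makes transfer RNA and other short RNAs. The enzymes have related catalytic cores, and some small subunits serve several of them. RNA polymerase I is recruited by the SL1 complex (TAF1A to TAF1D with TBP) and by RRN3, and RNA polymerase III by TFIIIC (GTF3C1 to GTF3C6), TFIIIB (BDP1 and BRF1 or BRF2 with TBP) and, for one class of genes, TFIIIA (GTF3A). MYC proteins are known to raise transcription by these enzymes in growing cells. The libraries hold messenger RNA for the subunits, not the activity of the enzymes.

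The libraries held 15490263 to 16078416 estimated counts each. Values are CPM, each library's share of counts on a common scale, with TMM factors of 0.93 to 0.948 for controls and 1.06 to 1.07 for MYCN hairpin libraries. MYCN itself read 3045.8, 3127.9 and 2875.8 CPM under the control hairpin, against 2413.4, 2283.8 and 2195.2 CPM under its hairpin, a log2 fold change of -0.39 ± 0.043 (SE). All 10 photoreceptor lineage markers listed for this tumour type were detected. Their summed level was 2284.5 to 2378.1 CPM for controls against 2376.9 to 2429.3 CPM for MYCN hairpin libraries. Of the 10, 8 were called higher and 2 lower, against 38.0% and 37.9% of all genes tested. The median log2 fold change of the list was 1.41, with THRB highest at 2.45. The 2 called lower, OTX2 (1077.9 to 679.5 CPM, -0.67) and AIPL1 (760.9 to 705.4 CPM, -0.11), held most of the sum. Of 9 markers of other cells found in the table, 4 stayed under 1 CPM in every library, and the list summed to 47.9 to 51.7 CPM for controls against 37.2 to 40.0 CPM for MYCN hairpin libraries. Most of that sum was POU4F2, which fell from 47.3 ± 1.92 to 27.6 ± 1.21 CPM. Of the 5 other-cell markers tested 3 were called higher, RPE65 (4.22 on the log2 scale, from 0.244 to 4.72 CPM), COL1A2 (2.11) and COL1A1 (1.29), and POU4F2 was the 1 called lower (-0.78). The part of these markers in the results was not tested, and in bulk RNA fewer cells of a type and less RNA per cell cannot be told apart. A gene is called changed where the edgeR quasi-likelihood test gave a Benjamini-Hochberg adjusted p under 0.05 over all 12819 genes tested.

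All 48 members had counts in every library and were tested. With the MYCN hairpin 31 were lower (64.6%) and 10 higher (20.8%), while 7 were not called. Of all genes tested, 37.9% were called lower and 38.0% higher, 75.8% in either direction. Not called were 7 of 48 members, against 3097 of 12819 genes, so the share called in either direction is only somewhat above that of all genes. The share of members called lower is above its background and the share called higher is below it. The median log2 fold change was -0.34 over the members and 0.01 over all genes tested. Library size as the only scaling moves the median of all genes to 0.19. On that scale 23 members were lower and 16 higher, against 3348 lower and 6597 higher among all genes. The libraries of the groups did not overlap for 30 of 48 members that were lower and 10 of 48 that were higher. Among the 12819 genes tested this held for 4899 (38.2%) and 4946 (38.6%), or 76.8% in either direction. Members lay at or above the 22.8th percentile of abundance among tested genes, and 36 of 48 lay above its middle.

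**Figure D1:**
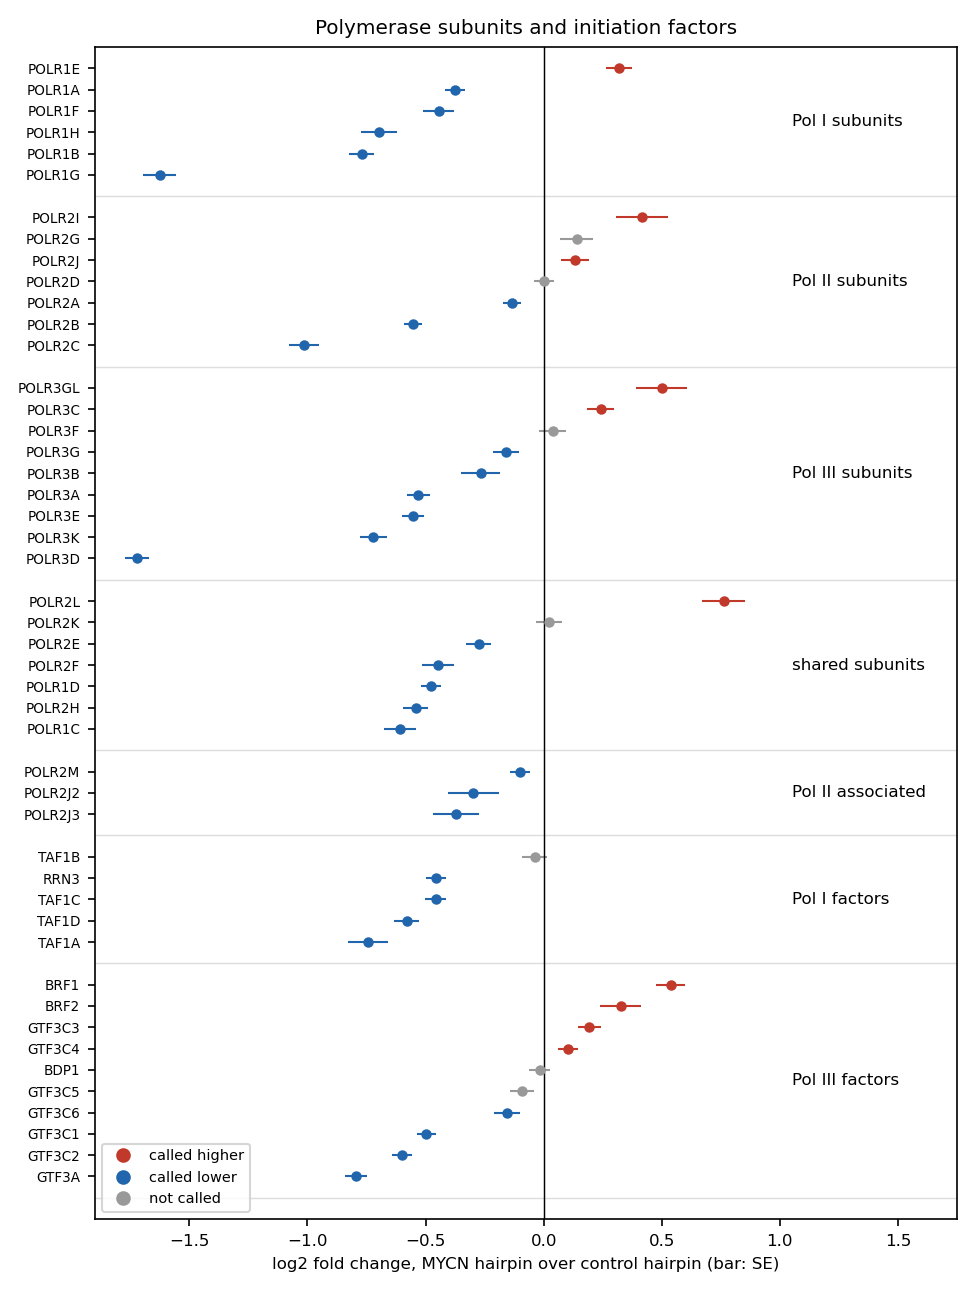
Log2 fold change (x axis, MYCN hairpin over control hairpin) of 47 of the 48 members, with its standard error, grouped by enzyme or factor and coloured by the edgeR call. POLR3D (-1.72), POLR1G (-1.63) and POLR2C (-1.01) lie farthest to the left and POLR2L (0.76) farthest to the right.

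The subunits found in RNA polymerase I alone were mostly lower. Of 6 such genes 5 fell (83.3%) and 1 rose (16.7%), against 37.9% and 38.0% of all genes tested. The median log2 fold change was -0.57. POLR1A, the largest subunit, which forms the active centre together with POLR1B, read 190.8, 184.5 and 178.7 CPM under the control hairpin, against 146.4, 136.9 and 144.0 CPM under the MYCN hairpin. It fell by 0.38 ± 0.041 on the log2 scale (SE; adjusted p = 6.4e-11), and every MYCN hairpin library lay below every control. POLR1B, the second largest subunit, fell by 0.77 from 77.2 ± 4.23 to 45.2 ± 1.38 CPM (SD, n = 3). POLR1H, a small zinc-ribbon subunit that takes part in RNA cleavage, fell by 0.70, and POLR1F, a subunit of the stalk, by 0.44.

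POLR1G and POLR1E, whose proteins pair as a heterodimer on the surface of RNA polymerase I, changed in opposite directions. POLR1G (chromosome 19, 45406209 to 45410766, GRCh38) read 49.2, 46.2 and 43.4 CPM under the control hairpin, against 15, 15.6 and 14.5 CPM under the MYCN hairpin. The MYCN hairpin libraries lay far below every control, and the log2 fold change was -1.63 ± 0.069 (adjusted p = 5.6e-24). POLR1E (chromosome 9, 37485935 to 37503697) read 39.6, 40.3 and 39.7 CPM under the control hairpin, against 50, 50.7 and 48.5 CPM under the MYCN hairpin. All of its MYCN hairpin libraries were above the controls, a rise of 0.32 ± 0.055 (adjusted p = 1.8e-06). ERCC1 on the opposite strand overlaps 87.0% of the POLR1G transcript, and its log2 fold change was -0.06 (adjusted p = 0.34). Whether counting used strand is not given in the sources used here, so the reads of this pair may not be separable.

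POLR1C and POLR1D, which form the assembly platform of both RNA polymerase I and III, both fell. POLR1C read 38.1, 41.7 and 45.6 CPM under the control hairpin, against 27.8, 25.7 and 28.7 CPM under the MYCN hairpin (log2 fold change -0.61 ± 0.066). POLR1D read 140.6, 148.8 and 152.1 CPM in controls, against 106.8, 102.3 and 107.8 CPM in MYCN hairpin libraries (-0.48 ± 0.043). The groups did not overlap for either gene.

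Of the 5 subunits used by all 3 polymerases, 3 fell, 1 rose and 1 was not called. Over all genes tested 37.9% were called lower and 38.0% higher, and whether these 5 genes differ from those shares was not tested. POLR2H read 64.5, 69.5 and 63.6 CPM under the control hairpin, against 44.9, 45.2 and 45.7 CPM under the MYCN hairpin, a fall of 0.54 ± 0.053 on the log2 scale. POLR2F fell by 0.45. POLR2E fell by 0.28, a call that library size scaling alone ended (log2 fold change -0.09). POLR2L, a small zinc-binding subunit of the core, went the other way. It read 13.0, 12.7 and 10.1 CPM under the control hairpin, against 19.5, 19.7 and 21.6 CPM under the MYCN hairpin, with no overlap between groups. Its log2 fold change of 0.76 ± 0.090 (adjusted p = 5.4e-10) was the highest of all 48 members, and it ranged from 0.66 to 0.94 over the alternatives tried. CD151 on the opposite strand, which overlaps 12.4% of the POLR2L transcript, had a log2 fold change of 0.60. POLR2K measured 63.1 ± 4.47 and 64.0 ± 4.02 CPM and was not called (0.02 ± 0.055), although it was called higher with library sizes alone (0.20).

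RNA polymerase II subunits showed no common direction. Of the 7 genes particular to this enzyme 3 fell (42.9%), 2 rose (28.6%) and 2 were not called. Over all genes 37.9% were called lower and 38.0% higher. The median log2 fold change was 0.001, next to the median of all genes tested. POLR2A, the largest subunit, whose tail of repeats is phosphorylated during transcription, read 249.5, 254.3 and 239.7 CPM under the control hairpin, against 226.3, 223.7 and 228.5 CPM under the MYCN hairpin. It fell by 0.13 ± 0.038 (adjusted p = 0.0021), which turned to 0.05 and was not called with library sizes alone. The groups did not overlap, but the gap was small. POLR2B, the second largest subunit, fell by 0.55 from 311 ± 11.3 to 212 ± 1.97 CPM.

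POLR2C, which pairs with POLR2J to form the assembly platform of RNA polymerase II, was the lowest member of this enzyme. POLR2C (chromosome 16, 57462387 to 57472010) read 46.3, 42.1 and 46.5 CPM under the control hairpin, against 22.8, 21.7 and 22.4 CPM under the MYCN hairpin, a log2 fold change of -1.01 ± 0.063 (adjusted p = 3.2e-18). Its partner POLR2J was slightly higher, at 33.2 ± 1.06 and 36.5 ± 0.655 CPM (0.13 ± 0.060, adjusted p = 0.041). That call was lost by DESeq2, with no filter, and without control replicate 1 or 3 or any one MYCN hairpin replicate, where the log2 fold change was 0.11 to 0.14. Over all alternatives its adjusted p ran from 1.5e-05 to 0.14. POLR2I, a zinc-ribbon subunit that aids accuracy, read 7.16, 8.6 and 7.35 CPM under the control hairpin, against 10.4, 9.95 and 10.6 CPM under the MYCN hairpin. It rose by 0.42 ± 0.110 (adjusted p = 0.00083) with no overlap between groups. TBCB on the opposite strand covers 45.7% of the POLR2I transcript and fell by 0.37.

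The stalk pair POLR2D and POLR2G was not called. POLR2D measured 135.6 ± 2.81 and 135.7 ± 0.651 CPM (0.001 ± 0.041). POLR2G read 64.1, 73.7 and 55.9 CPM under the control hairpin, against 72.2, 69.5 and 72.1 CPM under the MYCN hairpin, so the groups overlapped (0.14 ± 0.070, adjusted p = 0.078). Without control replicate 2 it was called higher (0.24), as it was by limma-voom (0.15), with no filter (0.13), under the replicate block (0.15) and with library sizes alone (0.32), and its adjusted p over the alternatives ran from 0.00016 to 0.44.

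POLR2M, POLR2J2 and POLR2J3 carry polymerase II symbols but are not parts of the core. POLR2M encodes a protein that associates with RNA polymerase II and restrains initiation, and POLR2J2 and POLR2J3 are near-identical copies of POLR2J on chromosome 7, so their counts are uncertain, as is that of POLR2J. All 3 were called lower, by small amounts, as were 37.9% of all genes. POLR2J3 read 13.9, 16.3 and 17.1 CPM under the control hairpin, against 13.0, 10.4 and 13.0 CPM under the MYCN hairpin (-0.37 ± 0.098), a call that library sizes alone ended (-0.19). POLR2M read 103.8, 104.8 and 111.8 CPM in controls, against 99.0, 100.4 and 99.5 CPM in MYCN hairpin libraries (-0.10 ± 0.044), and the sign turned with library sizes alone (0.08). GCOM1 on the same strand overlaps 33.0% of the POLR2M transcript. The POLR2M call was also lost by DESeq2 (-0.10), by upper quartile scaling (-0.06) and without control replicate 3 or any one MYCN hairpin replicate (-0.10 to -0.07). The log2 fold change of POLR2J2 was -0.30, its groups overlapped, and the call was lost by DESeq2, with library sizes alone (-0.12), and without control replicate 1 or 2 or MYCN hairpin replicate 1 (-0.25 to -0.22).

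RNA polymerase III subunits were mostly lower, with 7 of 10 fallen and 2 risen, against 37.9% lower and 38.0% higher among all genes tested. Their median log2 fold change was -0.40. POLR3D (chromosome 8, 22245104 to 22254600), which pairs with POLR3E in a dimer needed for initiation and termination, had the lowest log2 fold change of all members. It read 114.2, 116.0 and 116.9 CPM under the control hairpin, against 34.2, 37.5 and 33.7 CPM under the MYCN hairpin. The log2 fold change was -1.72 ± 0.051 (adjusted p = 2.9e-29) and stayed between -1.77 and -1.54 over the alternatives tried. Its partner POLR3E fell too, by 0.55 from 101.3 ± 2.56 to 69.1 ± 4.02 CPM. POLR3D, POLR1G and POLR2C were the 3 members that fell by at least 1 on the log2 scale, a size reached by 5.25% of all genes, and no member rose by that much, which 9.24% of all genes did.

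The catalytic subunits of RNA polymerase III also fell. POLR3A, the largest, read 84.6, 89.8 and 85.3 CPM under the control hairpin, against 61.7, 57.6 and 60.6 CPM under the MYCN hairpin (-0.53 ± 0.049, adjusted p = 6.3e-13), without overlap. POLR3B, the second largest, fell by 0.27 from 17.5 ± 0.244 to 14.5 ± 0.584 CPM, a call that library sizes alone ended (-0.08). POLR3K, the zinc-ribbon subunit for RNA cleavage, fell by 0.72.

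The trimer of POLR3C, POLR3F and either POLR3G or POLR3GL takes part in opening promoter DNA. POLR3C rose by 0.24, from 43.7 ± 2.47 to 51.7 ± 3.43 CPM. POLR3F measured 36.2 ± 0.772 and 37.2 ± 0.709 CPM and was not called (0.04 ± 0.058), although it was called higher with library sizes alone (0.22).

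POLR3G and POLR3GL are alternative subunits, and POLR3G is known as the form of stem cells and tumour cells. POLR3G read 51.2, 49.4 and 53.8 CPM under the control hairpin, against 44.3, 47.2 and 46.6 CPM under the MYCN hairpin, a fall of 0.16 ± 0.055 (adjusted p = 0.0081) that turned to 0.02 with library sizes alone. Its call was also lost without MYCN hairpin replicate 1 (-0.13), and the adjusted p over the alternatives ran from 0.0038 to 0.73. POLR3GL read 9.72, 9.54 and 13.0 CPM under the control hairpin, against 13.9, 17.2 and 14.3 CPM under the MYCN hairpin, a rise of 0.50 ± 0.107 (adjusted p = 8.1e-05). The groups did not overlap, and control replicate 3 came closest to the MYCN hairpin libraries. The gene AC243547.3 on the same strand overlaps 32.8% of the POLR3GL transcript. Within a library the ratio does not depend on scaling: POLR3G counts were 5.27, 5.18 and 4.15 times those of POLR3GL in the controls and 3.18, 2.75 and 3.25 times with the MYCN hairpin. The log2 ratio was 2.28 ± 0.192 and 1.61 ± 0.132 (SD, n = 3), a difference of -0.67 with p = 0.1 in a two-sided exact permutation test, the smallest p that 3 against 3 libraries allow. Per kilobase of transcript, POLR3G stood at 1.73 times POLR3GL in the controls and at 1.08 times with the MYCN hairpin, or 2.18 and 1.37 times by the length of all exons.

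**Figure D2:**
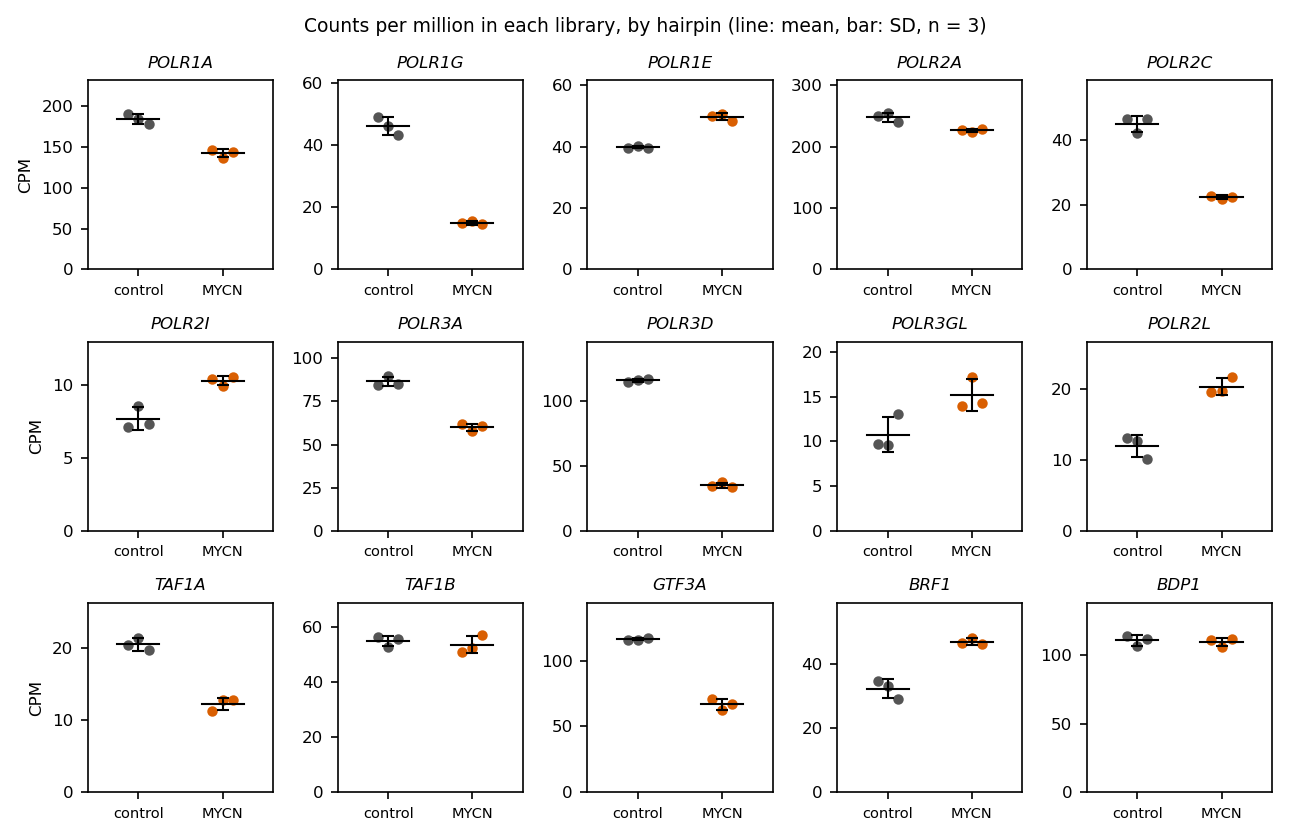
Scaled CPM (y axis, from 0) of 15 members in each of the 3 control and 3 MYCN hairpin libraries, with the mean and SD. POLR1G, POLR2C and POLR3D drop without overlap, POLR1E, POLR2L, POLR3GL and BRF1 lie higher with the MYCN hairpin, and TAF1B and BDP1 overlap.

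**Figure D3:**
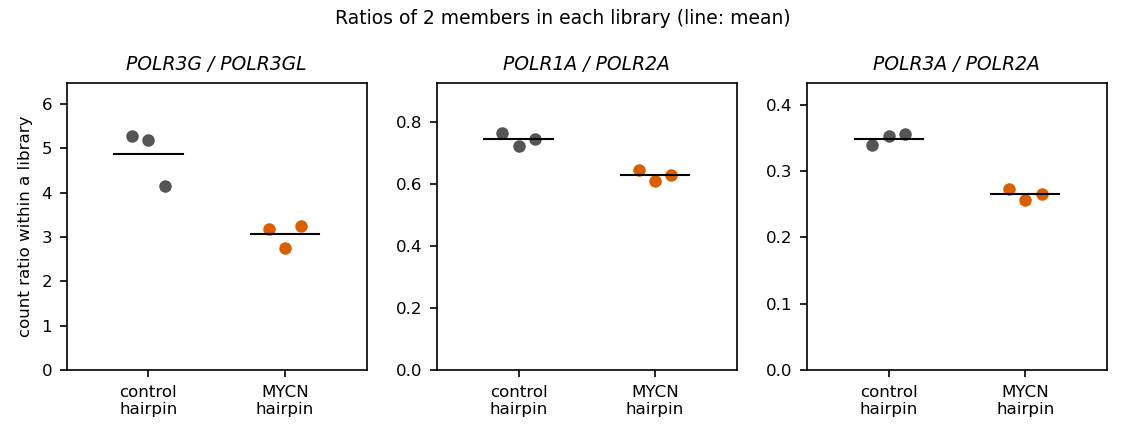
Ratio of counts of 2 members within each library (y axis, from 0), with the mean, in control and MYCN hairpin libraries. POLR3G to POLR3GL runs from 4.15 to 5.27 among controls, against 2.75 to 3.25 among MYCN hairpin libraries, and neither of the ratios to POLR2A overlaps between groups.

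The initiation factors of RNA polymerase I were lower or not called. Of 5 genes 4 fell (80.0%) and none rose, against 37.9% and 38.0% of all genes. The median log2 fold change was -0.46. RRN3, which couples the polymerase to SL1 and responds to growth signals, fell by 0.46 from 130.5 ± 2.43 to 95.2 ± 1.02 CPM. RRN3 has pseudogene copies, so its counts are uncertain. Among the SL1 subunits, TAF1A read 20.4, 21.3 and 19.6 CPM under the control hairpin, against 11.3, 12.7 and 12.7 CPM under the MYCN hairpin (-0.74 ± 0.085, adjusted p = 2.1e-10). TAF1D fell by 0.58 and TAF1C by 0.46. TAF1B, the SL1 subunit related to TFIIB, read 56.3, 52.9 and 55.8 CPM under the control hairpin, against 51.1, 52.6 and 57.0 CPM under the MYCN hairpin. These groups overlapped and TAF1B was not called (-0.04 ± 0.054), although with library sizes alone it was called higher (0.14).

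The factors of RNA polymerase III showed no common direction. Of 10 genes 4 fell, 4 rose and 2 were not called, close to the 37.9% lower and 38.0% higher among all genes, and the median log2 fold change was -0.05. GTF3A, the zinc finger factor for the short ribosomal RNA genes read by RNA polymerase III, fell most. It read 115.9, 115.6 and 117.0 CPM under the control hairpin, against 71.0, 62.7 and 67.2 CPM under the MYCN hairpin (-0.80 ± 0.047, adjusted p = 6.2e-19).

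Of the 3 TFIIIB genes 2 rose and 1 was not called, where 38.0% of all genes tested were called higher. BRF1, the TFIIIB subunit for promoters within transfer RNA genes, read 34.9, 33.3 and 29 CPM under the control hairpin, against 46.5, 48.3 and 46.4 CPM under the MYCN hairpin. It rose by 0.54 ± 0.061 (adjusted p = 2.2e-10), with no overlap between groups. BRF2, the counterpart for promoters upstream of the gene, rose by 0.33 from 15.6 ± 0.592 to 19.6 ± 2.49 CPM. ADGRA2 on the opposite strand overlaps 62.6% of the BRF2 transcript and rose by 0.42. BDP1, the third protein of TFIIIB beside TBP, measured 110.5 ± 3.73 and 109.3 ± 3.21 CPM and was not called (-0.02 ± 0.044), although with library sizes alone it was called higher (0.17).

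TFIIIC, the factor that reads the internal promoter, had 3 genes lower, 2 higher and 1 not called. GTF3C2 fell by 0.60 from 183.6 ± 2.22 to 121.2 ± 4.16 CPM and GTF3C1, the largest subunit, by 0.50 from 176.9 ± 6.0 to 125.5 ± 5.49 CPM. GTF3C6 fell by 0.16, a value that turned to 0.03 and was not called with library sizes alone. GTF3C3 rose by 0.19 from 80.6 ± 4.31 to 92.2 ± 1.16 CPM. GTF3C4 was called higher at 0.10 ± 0.043, a call lost by DESeq2, with no filter, and without control replicate 2 (0.07) or MYCN hairpin replicate 3 (0.09). GTF3C5 was not called (-0.09 ± 0.052), its sign turned with library sizes alone (0.09), and without control replicate 3 it was called lower (-0.15).

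Subunits at matching places in the 3 enzymes were set side by side. The largest subunits POLR1A, POLR2A and POLR3A had log2 fold changes of -0.38, -0.13 and -0.53, and the second largest POLR1B, POLR2B and POLR3B of -0.77, -0.55 and -0.27. The order of the enzymes thus differed between the catalytic subunits, with RNA polymerase III lowest in the first set and RNA polymerase I in the second. In the zinc-ribbon position POLR1H (-0.70) and POLR3K (-0.72) fell while POLR2I (0.42) rose. In the assembly platform POLR1C (-0.61), POLR1D (-0.48) and POLR2C (-1.01) fell and POLR2J (0.13) did not. In the stalk POLR1F (-0.44) fell, and POLR2D and POLR2G were not called. Apart from the ratio of POLR3G to POLR3GL and the ratios to POLR2A given next, differences between genes were not tested.

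Counts of POLR1A were 0.765, 0.725 and 0.745 times those of POLR2A in the controls and 0.647, 0.612 and 0.630 times with the MYCN hairpin. Counts of POLR3A were 0.339, 0.353 and 0.356 times those of POLR2A in the controls and 0.273, 0.257 and 0.265 times with the MYCN hairpin. Both ratios were lower in every MYCN hairpin library than in any control, by 0.24 and 0.40 on the log2 scale. Each of the 3 ratios examined, that of POLR3G to POLR3GL included, gave the smallest p the design allows, p = 0.1 in the exact permutation test and 0.1 after Benjamini-Hochberg adjustment, so none can pass 0.05. The geometric mean of the subunits particular to each enzyme ran from 53.3 to 53.9 CPM among controls, against 35.1 to 35.7 CPM among MYCN hairpin libraries, for RNA polymerase I (6 genes). It ran from 67.9 to 71.8 and from 62.0 to 63.4 CPM for RNA polymerase II (7 genes), and from 45.4 to 46.5 and from 34.6 to 35.5 CPM for RNA polymerase III (10 genes).

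Levels of different genes were compared per kilobase of transcript. POLR2A stood at 36.7 ± 1.10 CPM per kilobase in the controls, POLR1A at 14.5 ± 0.478 and POLR3A at 13.0 ± 0.425 (SD, n = 3). With the MYCN hairpin these levels were 33.5 ± 0.358, 11.2 ± 0.389 and 9.03 ± 0.321. The second largest subunits lay farther apart, with POLR2B at 75.7 ± 2.74, POLR1B at 16.9 ± 0.929 and POLR3B at 4.09 ± 0.0571 in the controls. Both sets ran from RNA polymerase II through I to III in both groups, also when the length of all exons was used (29.7, 13.7 and 9.71 for the largest subunits in controls). POLR1A and POLR3A are close in this order, and their distance depends on the length taken for each gene.

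**Figure D4:**
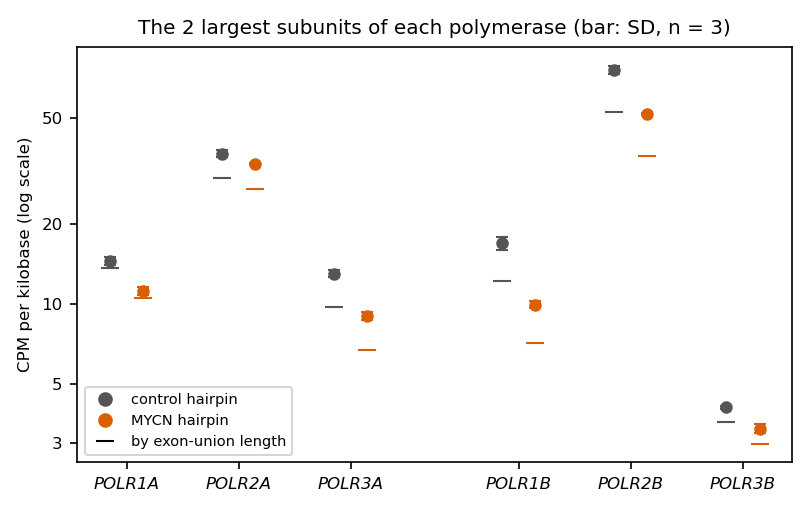
Level per kilobase of transcript (y axis, log scale) of the 2 largest subunits of each polymerase, with SD over 3 libraries, in controls and with the MYCN hairpin. Dashes give the mean with the length of all exons in place of 1 transcript. POLR2A and POLR2B are highest and POLR3A and POLR3B lowest in their sets, in both groups.

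MYC proteins with MAX bind the E-box CACGTG, which reads the same on both strands, so the RefSeq promoter windows (GRCh38.p14, 250 bases before to 50 after a start site) of the members were searched for it. Windows were found for 38 of 48 members, and the 10 without one included POLR1E, POLR2G, POLR2I, POLR2J, POLR2J3, POLR2K, POLR3D, POLR3G and BRF2. The motif occurred in 7 of these 38 genes (18.42%), against 12.74% of 10352 tested genes and 8.77% of all 27305 genes with a window. They are shown 5′ to 3′ on the strand of the gene, with the motif in capitals, because they span members that fell and members that rose.
POLR1G: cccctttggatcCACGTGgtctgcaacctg
POLR3A: agaggaagcggaCACGTGggacactctacg
POLR3C: gcccgcgtcggtCACGTGagttggccaggc
POLR3E: cccgctccccccCACGTGtccgccggagtt
GTF3C2: ccggaccaagcaCACGTGtttaccttgtgc
GTF3C4: ggcccgggacccCACGTGggacgcgcgagg
GTF3C6: gtggcgagtctcCACGTGggtaccggcgct
The stretches lie at chr19:45406620-45406649 (plus strand) for POLR1G, chr10:78029533-78029562 (minus) for POLR3A, chr1:145823992-145824021 (plus) for POLR3C and chr16:22297396-22297425 (plus) for POLR3E. Those of the TFIIIC genes lie at chr2:27356850-27356879 (minus) for GTF3C2, chr9:132669988-132670017 (plus) for GTF3C4 and chr6:110958552-110958581 (plus) for GTF3C6. Of the 7 genes with the motif 5 were called lower and 2, POLR3C and GTF3C4, higher, with a median log2 fold change of -0.53. Of the 31 genes whose windows lack it 22 were called lower and 4 higher, with a median of -0.44. The 10 members without a window had 4 lower and 4 higher, with a median of 0.08. Among all genes tested 37.9% were called lower and 38.0% higher. Among genes with a window, the motif was found for 3 of 7 RNA polymerase III subunits and 1 of 5 RNA polymerase I subunits. It was found for 3 of 9 RNA polymerase III factors, all of TFIIIC. None of 4 RNA polymerase II subunits, 5 RNA polymerase I factors, 4 subunits of all 3 enzymes and 2 of enzymes I and III had it. At a share of 12.74% among tested genes, sets this small can lack the motif, and differences between them were not tested.

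Other genes of the same machinery were counted from listed sets. For comparison, 37.9% of all genes tested were called lower and 38.0% higher. Of 31 general transcription factor genes of RNA polymerase II, TBP included, 18 were called lower and 4 higher (median log2 fold change -0.24), from TAF12, a TFIID subunit, at -1.34 to GTF2H3, a TFIIH subunit, at 0.42. Of 12 RNA polymerase II elongation factor genes 7 were lower and 3 higher (median -0.23), with NELFB, a subunit of the pausing factor NELF, lowest at -0.76 and ELL2, near 1 CPM in both groups, highest at 0.98. Of 10 further genes of RNA polymerase III transcription 7 were lower and 1 higher (median -0.40), with SNAPC5 lowest at -0.75. The 1 higher gene was MAF1, a repressor of RNA polymerase III, which read 33.7, 37.3 and 36.0 CPM under the control hairpin, against 45.9, 42.6 and 40.8 CPM under the MYCN hairpin (0.27 ± 0.060, adjusted p = 8.7e-05).

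TBP, which serves all 3 polymerases and stands in each of the lists of their factors, measured 24.0 ± 1.14 and 23.2 ± 0.557 CPM and was not called (-0.05 ± 0.070). Of 6 further RNA polymerase I genes 4 were lower and 1 higher, against 37.9% and 38.0% of all genes tested. MYBBP1A, a nucleolar MYB-binding protein, fell by 1.33, while UBTF, which binds the ribosomal RNA genes, rose by 0.21 from 173.6 ± 8.68 to 200.4 ± 5.45 CPM. Of 13 genes for polymerase assembly and its chaperones 9 were lower and 1 higher (median -0.25), with the prefoldin gene PFDN2 lowest at -1.07 and PDRG1, a component of the prefoldin-like complex, highest at 0.62. The table has no row for any of 10 listed RNA products of RNA polymerases I and III, so their levels were not analysed here.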

How the data were processed

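Poly(A)-selected RNA of 3 control and 3 MYCN hairpin libraries was sequenced from both ends, per the labels' protocols and the series text. The authors deposited estimated counts per gene symbol, unscaled, of which 12.51% to 12.83% are not whole. Reads were placed on GRCh38, as the submitters' processing notes list. For the aligner, counting program, annotation and strand setting: not given in the sources used here. Of 17035 rows, 22 without values were left out. No replicates were identical (chi-square per degree of freedom 1.732 to 4.232).

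Counts were rounded, filtered (filterByExpr) and tested with the quasi-likelihood test of edgeR 4.0.16 (R 4.3.3, robust dispersions, TMM). The methods were also run on simulated data in which few genes changed. That run cannot show how the scaling behaves where most genes are called, as here. The standard error was derived from F. Alternatives were DESeq2 1.42.0, limma-voom 3.58.1, scaling by library size alone, RLE or upper quartiles, a filter of 1 CPM in 3 libraries or none, a replicate block, and each library left out. Lengths and positions came from GENCODE 29, with 1 principal transcript per gene (for POLR2A the longest). Promoters came from RefSeq.

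The members, lists and tests were chosen with earlier results of these data known. Values per library are given for the highest and lowest tested member of each class, the largest subunits, POLR3G and POLR3GL, and members changed by at least 1 on the log2 scale. POLR2K, BDP1, POLR2G and others outside this rule are given as well and were chosen after their values were seen. Python 3.11.15, numpy 2.4.6, pandas 2.3.3 and matplotlib 3.10.9 were used. For 1 member, kept in all counts and medians, values are not reported here.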

Additional observations from a re-analysis of the deposited data

How the results depend on the processing

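Of the 48 members, 31 (8 higher, 23 lower) kept direction and call in all 14 alternatives, and 37 in the 13 other than library size scaling; the cause of the changes was not tested. With library sizes alone, 16 members were called higher in all, 4 RNA polymerase II subunits, 2 shared subunits and 1 RNA polymerase I factor were higher, and 0 polymerase II associated genes were lower. The medians were then -0.39 (polymerase I subunits), 0.18 (II), -0.22 (III), -0.27 (shared), -0.12 (polymerase II associated), -0.28 (polymerase I factors), 0.13 (polymerase III factors) and 0.19 (all genes). Upper quartile scaling gave 0.04 (II), -0.36 (III), -0.41 (shared), -0.42 (polymerase I factors), -0.016 (polymerase III factors) and 0.043 (all genes). DESeq2 called 1 polymerase II subunit higher and 1 associated gene lower, with a median of 0.003 over all genes, and no filter gave -0.41 (III) and 0.02 (all genes). Leaving out 1 library gave 1 to 3 polymerase II subunits higher and 1 to 2 associated genes lower, with medians from -0.42 to -0.38 (III), -0.47 to -0.40 (shared), -0.32 to -0.22 (associated) and 0.004 to 0.008 (all genes).

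Signs turned with library sizes alone for POLR2A (0.05), POLR2M (0.082), POLR3G (0.021), TAF1B (0.14), BDP1 (0.17), GTF3C5 (0.089) and GTF3C6 (0.025), and with upper quartile scaling for TAF1B (0.00029) and BDP1 (0.022). Members near 0 turned as well: POLR2D with RLE (-1.8e-05), DESeq2 (-2.5e-05), no filter (-0.011), and without 1 library (-0.018 to 0.012), BDP1 without 1 library (-0.047 to 0.009) and POLR2K without 1 library (-0.032 to 0.072). Lengths of all exons moved each level per kilobase by more than its SD.

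To look for a pairing, the mean of its group was first taken from each gene's log CPM. These deviations correlated at 0.12, 0.104 and 0.026 between same-numbered libraries of the 2 groups, so the replicate numbers were not taken as a pairing. Control replicates 1 and 2 and every MYCN hairpin replicate correlated best with their own number. Control replicate 3 did not, at 0.0401 with MYCN hairpin replicate 2. With the replicate block 4967 genes were higher and 4939 lower, and 11 members were higher and 31 lower, POLR2G (0.15) being the added call. The ratio differences were the same with the block (-0.67 for POLR3G to POLR3GL).

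Libraries of 15490263 to 16078416 counts left the lowest member value at 106 counts, so depth limited no member's detection.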
